A study of Mus musculus with 6 samples.

Results

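Nr5a1 and Nr0b1, 2 of the 31053 genes in the count matrices, were chosen by their symbols and followed across 6 single-cell RNA-seq libraries of mouse cells. Nr5a1 encodes steroidogenic factor SF-1 and Nr0b1 encodes DAX1. The Induced D6 library came from embryonic stem cells of the cross 129svj x C57BL/6J. They were grown as aggregates for 6 days in 3 steps of 2 days each. The first step held CHIR, BMP4 and EGF, the second BMP4, retinoic acid, PD0325901, SHH and EGF, and the third BMP4 and FGF9. The other 5 libraries came from gonads of XX embryos of the ICR strain at E10.5, E11.5, E12.5, E13.5 and E14.5, with no treatment named in the labels. All were dissociated with papain for 30 minutes. Each group had 1 library, so no value has a replicate check and none is tested: intervals are exact 95% intervals that cover counting error only. Strain, culture and library cannot be told apart from induction, and library cannot be told apart from stage.

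SF-1 is an orphan nuclear receptor and transcriptional activator. It is required for the adrenal gland and gonad to form, and it drives genes of steroid and gonadotropin hormone production. DAX1 is an atypical nuclear receptor that lacks the usual DNA-binding domain and acts mainly as a corepressor of SF-1. Both are made in the somatic cells of the early gonad, and in mouse embryonic stem cells Nr0b1 is also part of the pluripotency network.

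Nr5a1 (ENSMUSG00000026751) lies on the minus strand of chr2:38692656-38714542 in GRCm38, and its coding transcripts have up to 7 exons. The start of Nr5a1 overlaps the antisense gene Nr5a1os over 1867 bases. Nr0b1 (ENSMUSG00000025056) lies on the plus strand of chrX:86191764-86195947 with 2 exons. The promoter of Nr0b1 is shown because SF-1 binds half-sites of the kind AGGTCA and because the levels of both genes are compared throughout. These are the 239 bases before its annotated start, chrX:86191525-86191763, plus strand, from RefSeq on GRCm38.p6, with the motif matches in capitals.

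Nr0b1 promoter: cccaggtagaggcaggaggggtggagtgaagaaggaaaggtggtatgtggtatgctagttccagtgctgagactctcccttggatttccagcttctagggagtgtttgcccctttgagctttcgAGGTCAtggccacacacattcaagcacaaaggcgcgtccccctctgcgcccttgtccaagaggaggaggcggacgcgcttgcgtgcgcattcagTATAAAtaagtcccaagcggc

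A set of 3 motifs was searched on both strands. AGGTCA was found once, on the plus strand with its first base 115 bases upstream of the start, and windows of the same length hold it in 4432 of 32851 promoters (13.49%). AAGGTCA, which contains AGGTCA, had no match, and 3.93% of promoters hold it. TATAAA was found 21 bases upstream, and 12.04% of promoters hold it. A match is a description of letters and not of binding. The promoter table held 1 of the 2 genes, and Nr5a1 is only named.

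The Induced D6 library held 7564 barcodes and 50585914 UMIs (unique molecular identifiers, the counted RNA molecules), and the gonad libraries held 2766 to 6422 barcodes and 37606947 to 52146419 UMIs. After filters and removal of likely doublets 7064 Induced D6 cells remained, with a median of 6184 UMIs, and 2660 to 5937 cells in the gonad libraries, with medians of 6410 to 11831 UMIs. The E14.5 and E13.5 libraries shared 114 barcodes where 29.6 would be expected from the list of possible barcodes, and leaving those cells out kept every ratio of Nr5a1 and Nr0b1 within its interval. Each library was clustered without Nr5a1 and Nr0b1, and clusters were named "-like" from marker genes. The gonadal-epithelium-like cells used below join the clusters that resembled the supporting lineage (the precursors of granulosa cells), the coelomic epithelium at the gonad's surface, or a mix of both. They numbered 3507 in Induced D6 and 491, 1324, 1928, 1882 and 1635 over the 5 gonad stages in turn. That was 8.27% of kept cells at E10.5, against 39.4% to 61.0% at the later stages. The E10.5 library also held cells resembling surrounding tissue, such as paraxial or myogenic mesoderm (828 cells) and sclerotome (671 cells). Clusters without a name held 19.9% of Induced D6 cells, and between 4.56% (E14.5) and 43.0% (E10.5) of cells in the gonad libraries.

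Across whole libraries, both genes were at their highest levels in Induced D6, were near 0 at E10.5, and parted after E12.5. Levels are in CPM, the UMIs of a gene scaled to a common total of all UMIs in the summed cells. Nr5a1 had 60.7 CPM (interval 58.4 to 63.0) in Induced D6. In the gonad libraries Nr5a1 had 1.78 CPM in E10.5 cells, from 76 UMIs, then 33.7 CPM (E11.5), 33.6 CPM (E12.5), 26.5 CPM (E13.5) and 26.5 CPM (E14.5). The E12.5 and E11.5 levels had overlapping intervals, as did those of E14.5 and E13.5. Nr0b1 had 51.3 CPM (49.2 to 53.4) in Induced D6. In the gonad libraries Nr0b1 had 0.516 CPM in E10.5 cells, from 22 UMIs, then 26.2 CPM (E11.5), 18.7 CPM (E12.5), 4.09 CPM (E13.5) and 5.61 CPM (E14.5). For Nr0b1 no neighbouring stages had overlapping intervals. In a summed library, fewer cells of a type and less RNA per cell cannot be told apart, and most E10.5 cells were not gonadal-epithelium-like. The levels were therefore next taken within classes.

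**Figure D1:**
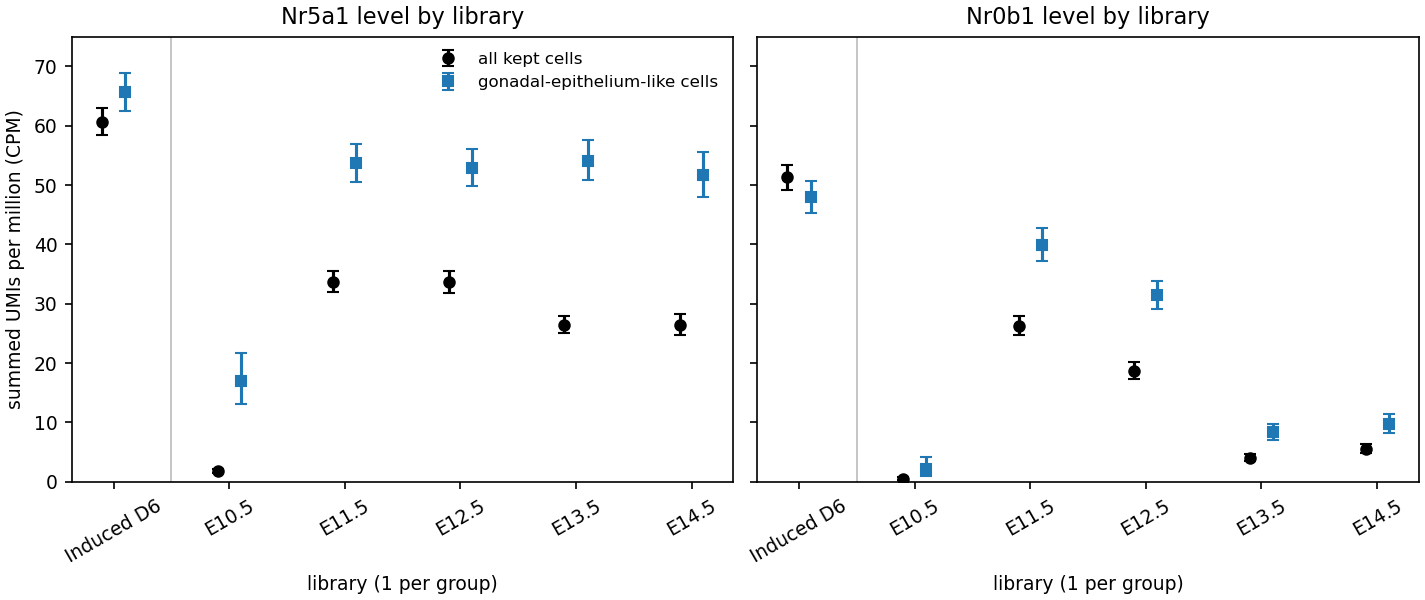
Levels of Nr5a1 and Nr0b1 in CPM, in all kept cells and in gonadal-epithelium-like cells, for Induced D6 and the 5 gonad stages. Points are sums over 1 library each and error bars are exact 95% Poisson intervals. Nr5a1 in gonadal-epithelium-like cells stays between 51.7 and 54.1 CPM over the last 4 stages, while Nr0b1 is at 8.35 CPM in E13.5 and 9.73 CPM in E14.5 cells.

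Among gonadal-epithelium-like cells, Nr5a1 was nearly level from E11.5 on and Nr0b1 was not. Nr5a1 had 65.6 CPM (62.5 to 68.8) in Induced D6, and 17.0, 53.7, 52.9, 54.1 and 51.7 CPM over the 5 stages in turn. Its intervals at the 4 later stages overlap. Nr0b1 had 47.9 CPM (45.3 to 50.7) in Induced D6, and 2.16, 39.9, 31.4, 8.35 and 9.73 CPM over the 5 stages in turn. The E10.5 value of Nr0b1 rests on 8 UMIs.

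Shares of cells with at least 1 UMI were taken at equal depth. Each cell was thinned to 3000 UMIs, which left out 162 Induced D6 cells and 40 to 464 cells in the gonad libraries. Nr5a1 was then detected in 16.02% of Induced D6 cells. In the gonad libraries it was detected in 0.457%, 8.85%, 9.48%, 7.16% and 6.85% of all cells, by stage from the earliest on. Without thinning the Nr5a1 shares were 28.6% in Induced D6 and 1.01% to 29.8% in gonads. Nr0b1 was detected in 13.2% of Induced D6 cells, and in 0.183%, 6.87%, 5.81%, 1.26% and 1.66% of all cells of the gonad libraries in the same order. Induced D6 had the largest share of both genes. Without thinning the Nr0b1 shares were 22.1% in Induced D6 and 0.371% to 21.7% in gonads. In gonadal-epithelium-like cells the thinned Nr5a1 shares were 17.5% in Induced D6 and 4.11%, 12.98%, 13.2%, 13.6% and 14.01% over the gonad stages. The Nr0b1 shares there were 12.3% in Induced D6 and 1.03%, 10.8%, 9.25%, 2.41% and 3.11% over the gonad stages.

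**Figure D2:**
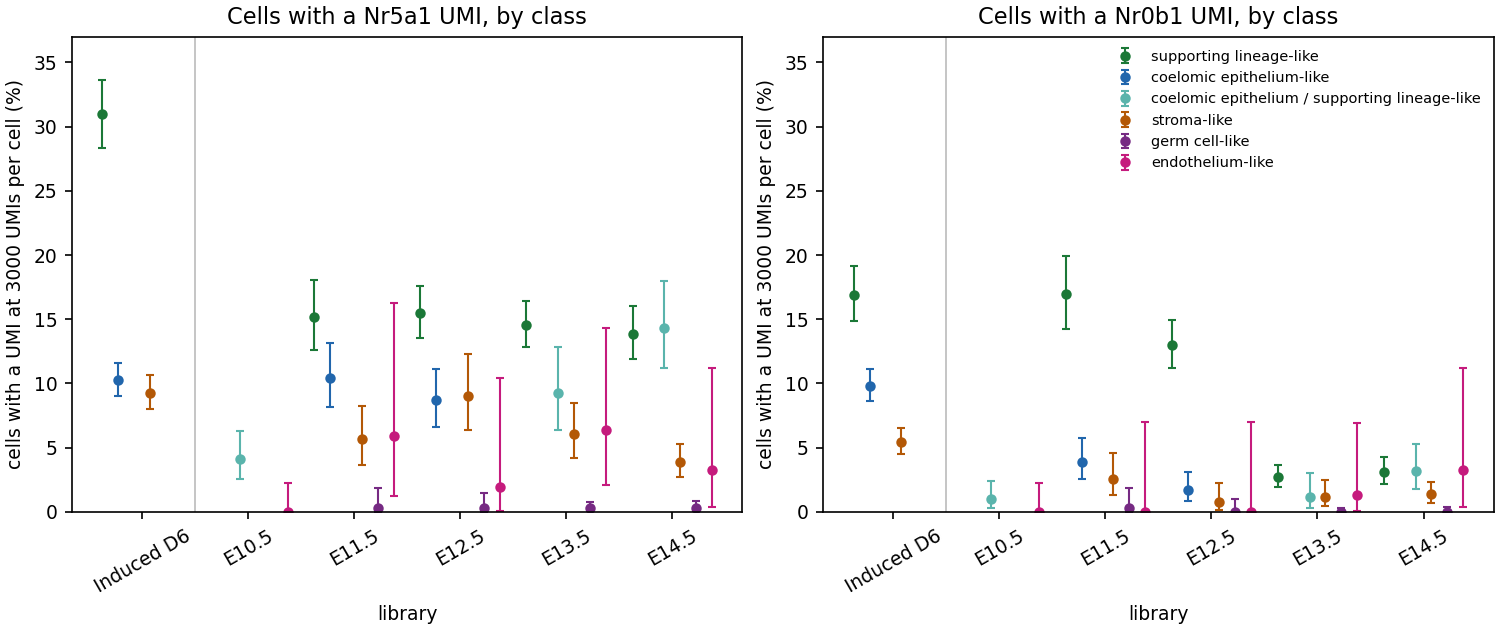
Share of cells, in percent, with at least 1 UMI of Nr5a1 or Nr0b1 after thinning every cell to 3000 UMIs, by class and library; error bars are exact 95% Clopper-Pearson intervals. Supporting-lineage-like cells of Induced D6 reach 31.0% for Nr5a1, and germ-cell-like cells are at or below 0.334% for both genes at the 4 later stages.

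Germ-cell-like cells were taken as a background, beside the endothelium-like, erythroid-like and leukocyte-like classes that were planned for it. Whether germ-cell-like cells lack both genes was not tested. Without thinning, 5.79% of them had an Nr0b1 UMI at E11.5. At the 4 later stages their thinned shares were 0.267% to 0.334% for Nr5a1 and 0 to 0.334% for Nr0b1, with median depths of 9826.5 to 21703 UMIs before thinning. Gonadal-epithelium-like cells of these libraries had median depths of 7209 to 11991.5 UMIs. Germ-cell-like levels were 0.307 to 2.08 CPM for Nr5a1 and 0.297 to 2.74 CPM for Nr0b1. The shares of both genes in gonadal-epithelium-like cells from E11.5 on lie above these germ-cell-like shares. Other classes outside the gonadal soma were not all as low. Leukocyte-like cells of E11.5 had 12.7 CPM of Nr5a1, from 11 UMIs, and no UMI of Nr0b1, and erythroid-like cells of E11.5 had no UMI of either gene. Induced D6 held no named class of 50 or more cells outside the gonadal soma, so it has no such background. Endothelium-like cells differed by stage. They had 55.4 CPM of Nr5a1 in E14.5 and 53.0 CPM in E13.5 gonads, against 14.7 CPM in E12.5 and 2.65 CPM in E11.5 gonads. Their thinned Nr5a1 shares were 3.23% (2 of 62 cells) at E14.5 and 6.41% (5 of 78 cells) at E13.5. Gonadal-epithelium-like cells had 14.01% and 13.6%. Without thinning the endothelium-like shares were 34.3% and 48.7%, with up to 13 and 12 Nr5a1 UMIs in a single cell. For Nr0b1 endothelium-like cells had 5.47 CPM in E14.5, 5.26 CPM in E13.5, 4.09 CPM in E12.5 and 0.882 CPM in E11.5 gonads. Their thinned Nr0b1 share at E14.5 was 3.23% (2 of 62 cells), against 3.11% in gonadal-epithelium-like cells. At E13.5 it was 1.28% against 2.41%, so late Nr0b1 was not clearly above the endothelium-like cells. Their 12 supporting-lineage markers together had 1170 CPM in E14.5 and 1132 CPM in E13.5 gonads, against 123 CPM in E12.5 and 140 CPM in E11.5 gonads. Fst, a marker of pregranulosa cells, had 139 CPM (E14.5) and 180 CPM (E13.5) in them, and no UMI in those of E12.5 and E11.5. The part of the source of these marker UMIs in the endothelial Nr5a1 and Nr0b1 values was not tested.

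From stage to stage in gonadal-epithelium-like cells, the steps of Nr5a1 and Nr0b1 differed in size and time. Between E11.5 and E10.5, Nr5a1 was 3.16-fold higher at E11.5 (2.45 to 4.14) and Nr0b1 was 18.5-fold higher (9.35 to 43.0), where 9.70% of 3310 genes with at least 50 CPM passed 2-fold upward and 6.71% downward. Nr0b1 stayed under 50 CPM in gonadal-epithelium-like cells of every library, so it is not among the genes behind these shares and its ratios have no rank among them. Between E12.5 and E11.5, the ratio was 0.985 for Nr5a1 (0.907 to 1.07) and 0.787 for Nr0b1 (0.710 to 0.872), both short of 2-fold, a size that 0.902% of genes passed upward and 1.15% downward. Between E13.5 and E12.5, Nr5a1 stood at a ratio of 1.02 (0.939 to 1.11). Nr0b1 had 8.35 CPM at E13.5 against 31.4 CPM at E12.5, a ratio of 0.266 (0.222 to 0.317), where 2.71% of genes passed 2-fold upward, 8.18% downward, and the median gene was at a log2 ratio of -0.25. Between E14.5 and E13.5, the ratio was 0.956 for Nr5a1 (0.867 to 1.05) and 1.17 for Nr0b1 (0.918 to 1.48), where 0.799% of genes passed 2-fold upward and 0.120% downward. Between E13.5 and E11.5, Nr5a1 was at a ratio of 1.01 (0.924 to 1.10) and Nr0b1 at 0.209 (0.175 to 0.249), where 3.86% of genes passed upward and 16.2% downward. Between E14.5 and E11.5, Nr5a1 was at a ratio of 0.963 (0.876 to 1.06) and Nr0b1 at 0.244 (0.202 to 0.293), where 5.67% of genes passed upward, 19.3% downward, and the median log2 ratio was -0.37. With median-of-ratios scaling, which sets the median gene near level, the E14.5 to E11.5 ratio of Nr5a1 was 1.02. That scaling gave 34 genes past 2-fold upward and 22 downward between E12.5 and E11.5, against 26 and 33 by CPM. Between E13.5 and E11.5 it gave 166 and 302, against 116 and 487 by CPM, and between E14.5 and E13.5 it gave 15 and 9, against 20 and 3.

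The lower Nr0b1 level of E13.5 and E14.5 was also measured within supporting-lineage-like cells alone. Nr0b1 there had 63.8 CPM (E11.5), 46.8 CPM (E12.5), 9.42 CPM (E13.5) and 10.6 CPM (E14.5), and the ratio of E13.5 to E12.5 was 0.201 (0.166 to 0.242). Nr5a1 in the same cells had 67.7 CPM (E11.5), 63.8 CPM (E12.5), 55.2 CPM (E13.5) and 49.6 CPM (E14.5). Its ratio was 0.865 (0.785 to 0.954) for E13.5 over E12.5. The intervals of the other steps include 1, at 0.942 (0.853 to 1.04) for E12.5 over E11.5 and 0.897 (0.795 to 1.01) for E14.5 over E13.5. The E14.5 to E11.5 ratio was 0.732 for Nr5a1 (0.647 to 0.827) and 0.167 for Nr0b1 (0.132 to 0.209).

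Induced D6 gonadal-epithelium-like cells had somewhat more of both genes than those of E11.5 and E12.5, by less than 2-fold. Against E11.5, Nr5a1 was at a ratio of 1.22 (1.13 to 1.32) and Nr0b1 at 1.20 (1.10 to 1.31), where 6.89% of 3324 genes passed 2-fold upward, 3.61% downward, and the median log2 ratio was 0.10. Against E12.5, Nr5a1 was at 1.24 (1.15 to 1.34) and Nr0b1 at 1.53 (1.39 to 1.68), where 10.52% of 3281 genes passed upward, 3.32% downward, and the median log2 ratio was 0.23. With median-of-ratios scaling 226 genes passed upward and 163 downward, where CPM gave 345 and 109. Neither ratio reached 2 in either comparison. Nr0b1 is X-linked, and Xist, the RNA of the inactive X chromosome, had 83.1 CPM in Induced D6 against 782 to 1787 CPM in gonads. The Y-linked genes Ddx3y, Eif2s3y, Kdm5d and Uty had no UMI in Induced D6 and at most 0.082 CPM in gonads. The part of X-chromosome dosage in the Nr0b1 values was not tested.

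Within the gonadal epithelium the sizes of these ratios depended on the class. In supporting-lineage-like cells, Nr5a1 had 123 CPM in 1232 Induced D6 cells, 1.82 times the E11.5 level (1.65 to 2.00) and 1.93 times the E12.5 level (1.76 to 2.11). Nr0b1 in those Induced D6 cells had 71.5 CPM, 1.12 times E11.5 (1.003 to 1.25) and 1.53 times E12.5 (1.36 to 1.71). In coelomic-epithelium-like cells, Nr5a1 had 38.0 CPM in Induced D6, against 38.3 CPM (E11.5) and 35.8 CPM (E12.5), and all 3 intervals overlap. Nr0b1 had 36.6 CPM in those Induced D6 cells, against 13.7 CPM (E11.5) and 7.18 CPM (E12.5), ratios of 2.67 (2.21 to 3.24) and 5.09 (3.91 to 6.74). The largest Induced D6 ratios were thus those of Nr0b1 in the coelomic class and of Nr5a1 in the supporting class.

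In Induced D6, E11.5 and E12.5, supporting-lineage-like cells had more of both genes than coelomic-epithelium-like cells. The ratio for Nr5a1 was 3.24 in Induced D6 (2.94 to 3.58), against 1.77 in E11.5 gonads and 1.78 in E12.5 gonads. For Nr0b1 it was 1.96 in Induced D6 (1.74 to 2.19), against 4.65 in E11.5 (3.86 to 5.64) and 6.52 in E12.5 gonads (5.01 to 8.63). Clusters resembling both classes had 49.8 CPM of Nr5a1 and 4.22 CPM of Nr0b1 at E13.5, and 54.8 CPM of Nr5a1 and 8.44 CPM of Nr0b1 at E14.5.

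Stroma-like cells had less of both genes than gonadal-epithelium-like cells in every library that had both classes. The epithelium to stroma ratio of Nr5a1 was 1.84 in Induced D6 (1.65 to 2.05; 65.6 CPM against 35.7), and 2.96, 1.88, 2.63 and 3.81 over the 4 later gonad stages. That of Nr0b1 was 2.22 in Induced D6 (1.94 to 2.55; 47.9 CPM against 21.6), and 2.60, 5.19, 1.86 and 1.57 over the same stages. The share of genes at least 2-fold higher in epithelium was 4.46% in Induced D6 and 6.98%, 5.92%, 8.60% and 8.77% over these stages. The Induced D6 ratios depended on how cells were clustered. With coarser or finer clusters, or with both genes let into the clustering, they were 3.27 to 3.62 for Nr5a1 and 3.59 to 4.0 for Nr0b1. Coelomic-epithelium-like cells alone did not always exceed stroma-like cells. For Nr0b1 they had 36.6 against 21.6 CPM in Induced D6, 13.7 against 15.4 CPM at E11.5, and 7.18 against 6.05 CPM at E12.5. For Nr5a1 they had 38.0 against 35.7 CPM in Induced D6, 38.3 against 18.1 CPM at E11.5, and 35.8 against 28.1 CPM at E12.5.

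The positive cells were spread over several classes. Of the thinned cells with Nr5a1 in Induced D6, 34.1% were supporting-lineage-like, 28.1% in unnamed clusters, 20.9% coelomic-epithelium-like and 16.8% stroma-like. In the gonads the supporting-lineage-like part of the Nr5a1-positive cells was 45.7% (E11.5), 67.1% (E12.5), 72.9% (E13.5) and 58.8% (E14.5). At E10.5, 20 of 25 Nr5a1-positive cells were in the 491-cell class that resembled both epithelia. Of the Nr0b1-positive cells of Induced D6, 41.2% were in unnamed clusters, 24.3% coelomic-epithelium-like, 22.6% supporting-lineage-like and 11.9% stroma-like. The supporting-lineage-like part of the Nr0b1-positive cells was 65.6% (E11.5), 91.7% (E12.5), 75.9% (E13.5) and 54.0% (E14.5).

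The 4 clusters with the most Nr0b1 were also those with the most Pax8, which encodes a paired-box transcription factor of kidney, thyroid and the Müllerian and mesonephric ducts. Of the clusters with 50 or more cells, 4 had at least 100 CPM of Pax8, a limit set after the values were seen. They were picked after their values were seen, as were the other clusters described here. An unnamed Induced D6 cluster of 875 cells had 303 CPM of Pax8, 120.5 CPM of Nr0b1 (111 to 130) and 93.4 CPM of Nr5a1. An Induced D6 supporting-lineage-like cluster of 468 cells had 132 CPM of Pax8, 95.1 CPM of Nr0b1 and 120.0 CPM of Nr5a1. An unnamed E11.5 cluster of 59 cells had 168 CPM of Pax8, 124 CPM of Nr0b1 (97.3 to 157) and 41.4 CPM of Nr5a1. A supporting-lineage-like E12.5 cluster of 112 cells had 139 CPM of Pax8, 127 CPM of Nr0b1 (105 to 153) and 33.4 CPM of Nr5a1. In 3 of the 4 clusters Nr0b1 exceeded Nr5a1. Pax8 was not accompanied by Nr0b1 at E10.5, where a cluster of 135 cells had 74.8 CPM of Pax8 and 1.04 CPM of Nr0b1, from 1 UMI, and a mesonephros-like cluster of 100 cells had 47.4 CPM of Pax8 and no UMI of Nr0b1. All but the 468-cell cluster also had C1qtnf12 and Egfl6 among their 10 leading genes. Sox9, a transcription factor of Sertoli cells in the testis, had 151 CPM in the 875-cell Induced D6 cluster, against 81.2 CPM in the E11.5 cluster and 165 CPM in the E12.5 cluster.

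Other clusters had the reverse balance. The Induced D6 supporting-lineage-like cluster of 764 cells had 125 CPM of Nr5a1 and 54.9 CPM of Nr0b1, with 21.7 CPM of Pax8. At E14.5, the cluster with the most Foxl2 (362 CPM), the pregranulosa transcription factor, had 36.2 CPM of Nr5a1 (27.5 to 46.6), against 63.1 CPM (50.2 to 78.3) in the supporting-lineage-like cluster with the least (12.3 CPM). At E13.5, the cluster with 295 CPM of Foxl2 had 43.8 CPM of Nr5a1 (37.9 to 50.4), and the others had 54.4 and 72.5 CPM. An unnamed Induced D6 cluster of 222 cells led by Cldn11 had 84.4 CPM of Nr5a1 and 124 CPM of Star, which encodes the cholesterol carrier of steroid synthesis. A Pou5f1-expressing, pluripotent-like cluster of 46 Induced D6 cells had 44.6 CPM of Nr0b1 from 9 UMIs (20.4 to 84.7) and 9.92 CPM of Nr5a1.

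**Figure D3:**
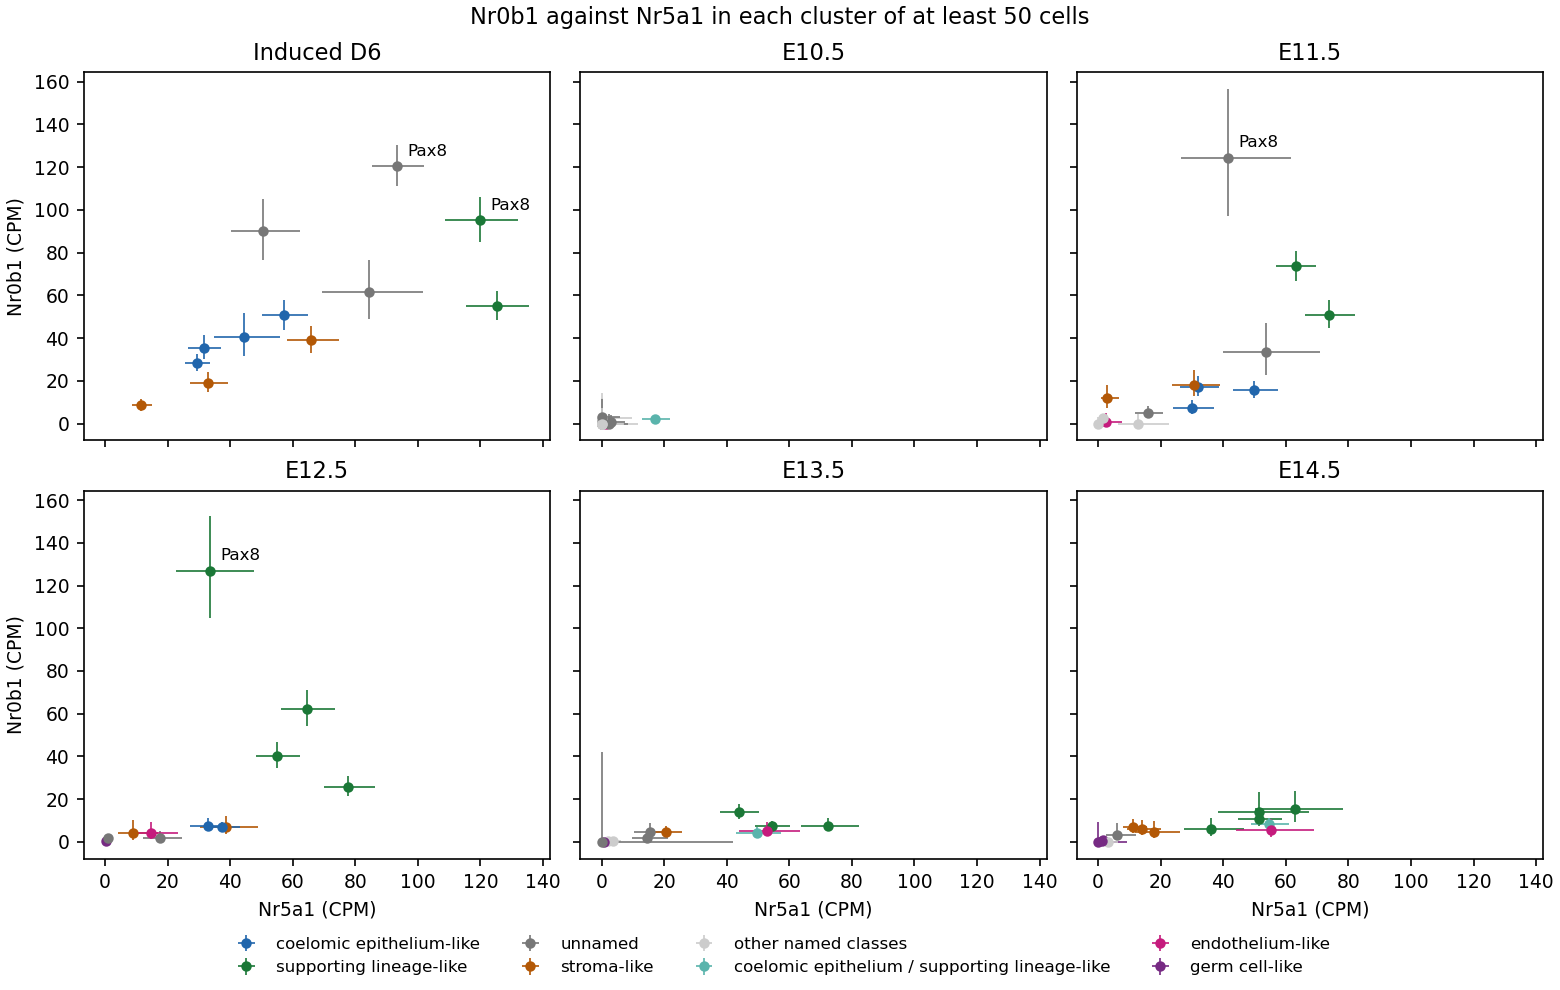
Each point is 1 cluster of at least 50 cells, with its Nr5a1 level on the x axis and its Nr0b1 level on the y axis in CPM, by library; clusters with at least 100 CPM of Pax8 are marked. The 4 marked clusters have 95.1 to 127 CPM of Nr0b1.

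At the level of single cells, Nr0b1 was detected in a larger share of Nr5a1-positive than of Nr5a1-negative cells across the whole Induced D6 and E11.5 libraries. At the later stages the intervals of that ratio include 1. Nr0b1 was detected in 16.5% of Nr5a1-positive and 12.6% of Nr5a1-negative Induced D6 cells, a ratio of 1.30 (1.10 to 1.54). At E11.5 the shares were 11.2% and 6.45%, a ratio of 1.74 (1.10 to 2.65), and at E12.5 they were 8.47% and 5.54%, a ratio of 1.53 (0.961 to 2.35). At E13.5 the shares were 1.96% (6 of 306 cells) and 1.21%, a ratio of 1.62 (0.567 to 3.79), and at E14.5 they were 3.08% (8 of 260 cells) and 1.55%, a ratio of 1.98 (0.814 to 4.18). Within gonadal-epithelium-like cells, the Nr0b1 share was 13.3% in Nr5a1-positive and 12.1% in Nr5a1-negative cells of Induced D6, a ratio of 1.10 (0.853 to 1.41). In gonads that ratio was 0.973 (0.559 to 1.60) in E11.5, 1.08 (0.677 to 1.66) in E12.5, 0.794 (0.245 to 2.01) in E13.5 and 1.23 (0.496 to 2.66) in E14.5 cells. All 5 intervals include 1, and they are wide. Within supporting-lineage-like cells of Induced D6 the shares were 13.53% in Nr5a1-positive and 18.4% in Nr5a1-negative cells, a ratio of 0.734 (0.524 to 1.01). At E10.5, 0 of 20 Nr5a1-positive and 5 of 467 Nr5a1-negative gonadal-epithelium-like cells had Nr0b1, which allows a share of up to 16.8% in the positive cells. The values at E11.5 and E13.5 are based on few cells, and thinning to 2000 UMIs gave 0.311 and 2.34, while stricter cell filters gave 3.21 at E14.5. Without thinning, where depth differs between cells, the shares in gonadal-epithelium-like cells at E11.5 were 40.5% and 28.7%.

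**Figure D4:**
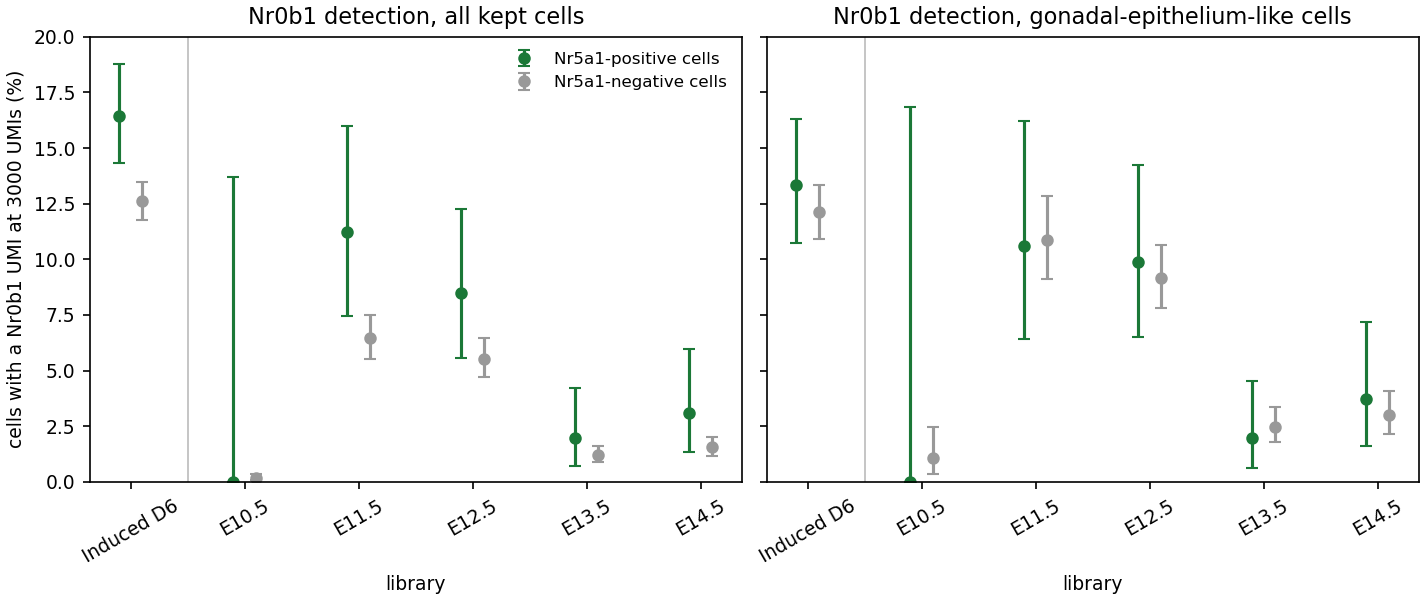
Share of cells, in percent, with an Nr0b1 UMI among Nr5a1-positive and Nr5a1-negative cells thinned to 3000 UMIs, in all kept cells and in gonadal-epithelium-like cells of each library; error bars are exact 95% Clopper-Pearson intervals. The positive point stands higher in all cells of Induced D6 (16.5% against 12.6%) and the points nearly meet in its gonadal-epithelium-like cells (13.3% against 12.1%).

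Nr5a1-positive cells of Induced D6 had more of several supporting-lineage genes than Nr5a1-negative cells, within the 608 positive and 2867 negative gonadal-epithelium-like cells. At least 2-fold higher were 19 of 3281 genes with at least 50 CPM (0.579%) and lower were 18 (0.549%). Of 7 pregranulosa genes measured at that level, 3 were at least 2-fold higher. Fst, which encodes the activin antagonist follistatin, had 70.8 CPM in Nr5a1-positive and 24.1 CPM in Nr5a1-negative cells, a ratio of 2.94 (2.34 to 3.68). Wnt6, a secreted ligand, had 299 and 134 CPM (2.24) and Runx1, a transcription factor of the fetal ovary, 57.6 and 27.8 CPM (2.07). Inha, which encodes the inhibin alpha subunit and is a known SF-1 target, had 128 CPM in positive and 53.2 CPM in negative cells (2.41, 2.05 to 2.83). Amhr2, the receptor of anti-Müllerian hormone and another such target, had 518 and 385 CPM (1.35, 1.25 to 1.45), and Star had 56.5 and 27.0 CPM (2.09, 1.64 to 2.65). The surface keratins were lower, with Krt19 at 264 and 590 CPM (0.45) and Krt7 at 30.7 and 61.9 CPM (0.50). Of the primordium regulators, which set up the early gonad, 0 of 7 passed 2-fold. Wt1 had 830 and 816 CPM (1.02, 0.962 to 1.08) and Gata4 had 180 and 169 CPM. By share of cells in place of CPM, 9 genes (0.274%) were at least 2-fold higher, Fst and Wnt6 among them, and 8 were lower (0.244%). Phlda1, Ddit4l and Fndc5 completed the 5 largest ratios, at 2.26 to 2.43.

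The supporting and coelomic classes were named from some of the same genes, so these differences were next taken within 1 class. Within supporting-lineage-like cells of Induced D6 alone, 0 of 3183 genes were at least 2-fold higher in Nr5a1-positive cells (0.00%) and 1 was lower (0.0314%). There Fst had 114 CPM in positive and 80.9 CPM in negative cells, a ratio of 1.41, and Inha was at 1.34, Star at 1.46 and Wnt6 at 1.06. In gonads the counts by Nr5a1 were taken both ways. Among gonadal-epithelium-like cells at E11.5, with 170 Nr5a1-positive and 1140 negative cells, 0 of 3071 genes passed 2-fold upward (0.00%) and 6 downward (0.195%). At E12.5 it was 0 of 2796 higher (0.00%) and 2 lower (0.0715%). The counts were 1 of 2463 higher (0.0406%) and 1 lower (0.0406%) at E13.5, and 0 of 2590 higher (0.00%) and 2 lower (0.0772%) at E14.5. Within supporting-lineage-like cells the counts were larger at E11.5, with 106 positive cells, where 22 of 3132 genes were higher (0.702%) and 17 lower (0.543%). There E12.5 had 2 of 2791 higher (0.0717%) and 6 lower (0.215%), E13.5 had 0 of 2517 higher (0.00%) and 1 lower (0.0397%), and E14.5 had 2 of 2723 higher (0.0734%) and 9 lower (0.331%). The part of the number of positive cells in these counts was not tested. In gonadal-epithelium-like cells the 5 largest ratios at each gonad stage lay between 1.68 and 2.01, led by Pde1a (E11.5), Mettl24 (E12.5), Smoc1 (E13.5) and Clec2l (E14.5). The higher gene of E13.5 was Smoc1, a secreted calcium-binding protein, with 78.8 CPM in positive and 39.2 CPM in negative cells (2.01, 1.48 to 2.70). Fst at E11.5 had 459 CPM in positive and 411 CPM in negative cells (1.12, 0.967 to 1.28), and Tcf21, a transcription factor of stroma precursors, had 19.6 and 67.5 CPM (0.29, 0.137 to 0.544).

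**Figure D5:**
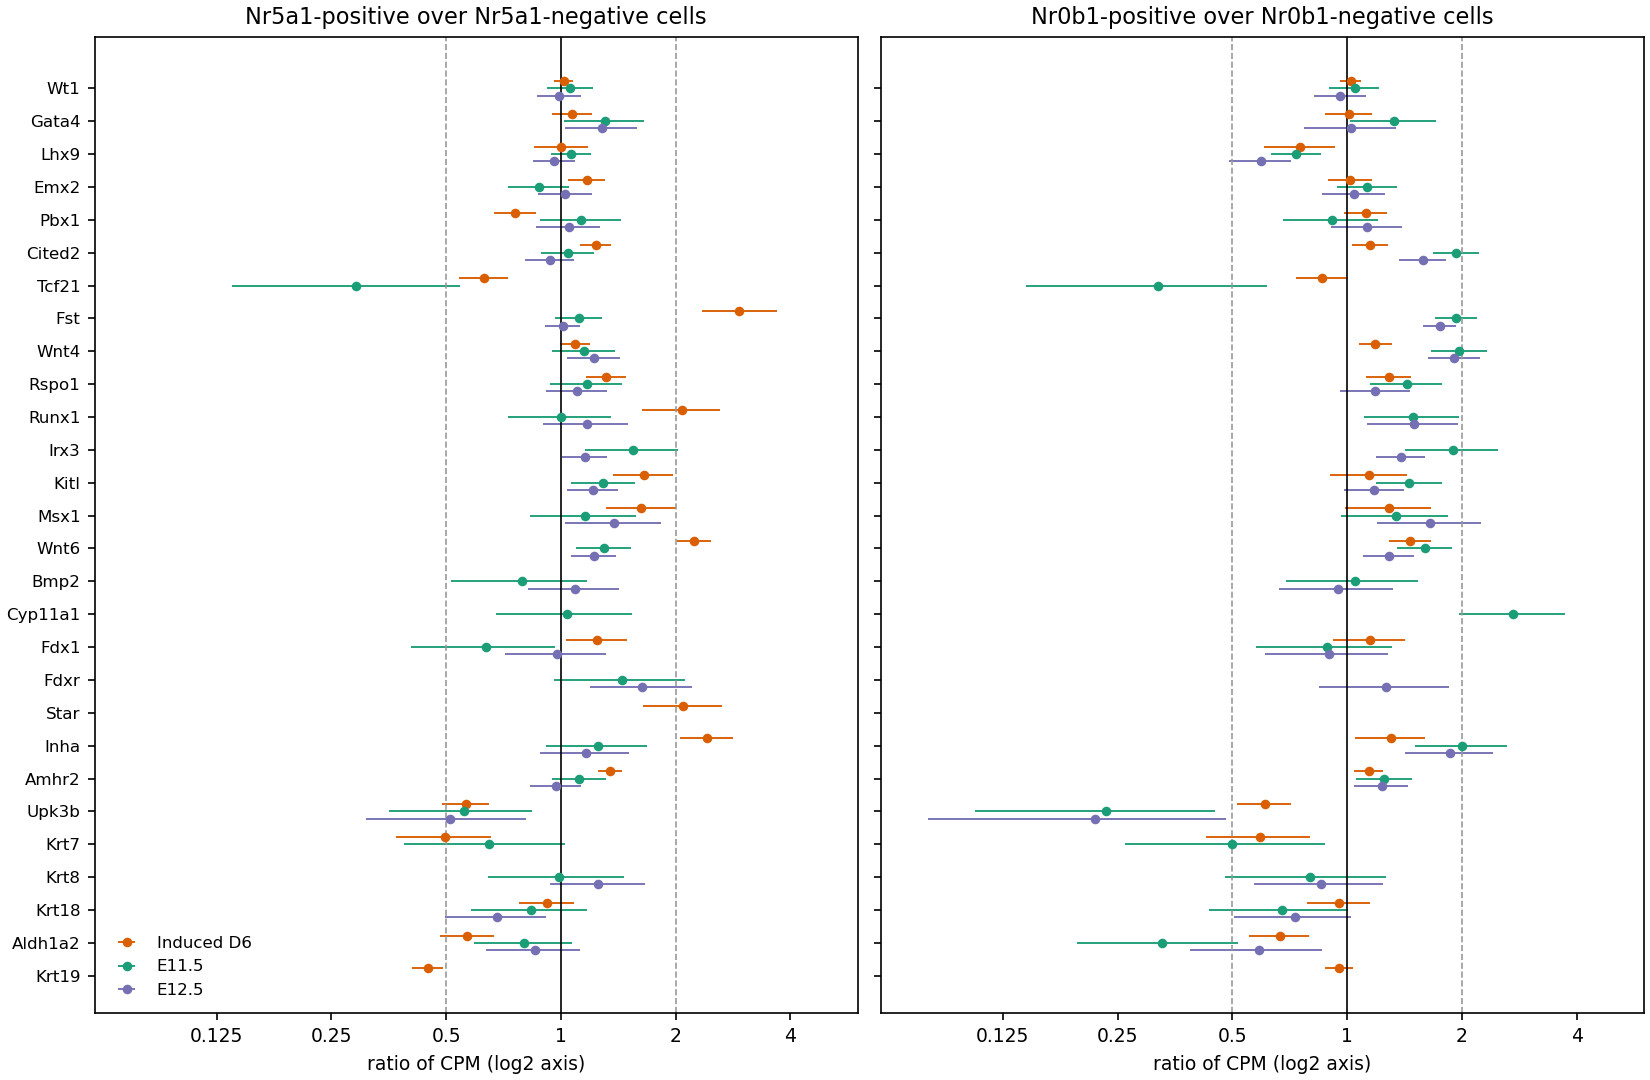
Ratio of the level in Nr5a1-positive or Nr0b1-positive over negative gonadal-epithelium-like cells, on a log axis, for named genes in Induced D6, E11.5 and E12.5 cells; points are ratios and bars are exact 95% intervals. Fst and Inha lie above 2 for Nr5a1 in Induced D6, and Upk3b lies at 0.23 for Nr0b1 at E11.5.

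Splitting the cells by Nr0b1 gave fewer genes past 2-fold in Induced D6 than at E11.5 and E12.5. The number of Nr0b1-positive gonadal-epithelium-like cells was 428 in Induced D6, 142 in E11.5 and 177 in E12.5 gonads, and its part in the counts was not tested. In Induced D6, 3 of 3262 genes were at least 2-fold higher in Nr0b1-positive cells (0.0920%) and 4 lower (0.123%). At E11.5, 62 of 3186 genes passed 2-fold upward (1.95%) and 99 downward (3.11%). At E12.5, 35 of 2927 were higher (1.20%) and 45 lower (1.54%). By share of cells, 38 were higher (1.19%) and 77 lower (2.42%) at E11.5, and 23 higher (0.786%) and 30 lower (1.02%) at E12.5. Within supporting-lineage-like cells of Induced D6, 4 of 3238 genes were higher (0.124%) and 2 lower (0.0618%). In that class at E11.5, 18 of 3135 genes were higher (0.574%) and 16 lower (0.510%). At E13.5 and E14.5 fewer than 50 cells were Nr0b1-positive, and no such comparison was made.

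At E11.5, Cyp11a1, which encodes the enzyme that makes pregnenolone from cholesterol, had 127 CPM in Nr0b1-positive and 46.5 CPM in negative cells (2.73, 1.97 to 3.73). Inha had 155 and 77.3 CPM (2.00). Fst, at 733 and 379 CPM (1.93), and Wnt4, at 397 and 201 CPM (1.97), fell just short of 2-fold. Surface genes were lower, with Upk3b, a uroplakin of mesothelium, at 21.1 and 90.5 CPM (0.23) and Aldh1a2, an enzyme of retinoic acid synthesis, at 44.6 and 136 CPM (0.33). Susd3, Etv6, Sprr2d and Apobec3 were among the 5 largest ratios, at 3.06 to 3.86. Within supporting-lineage-like cells alone at E11.5, the 5 largest were those of Bcar1, Zc2hc1a, Susd3, Ice1 and Med13, at 2.39 to 2.65. Nr0b1 itself was 4.65-fold higher in supporting-lineage-like than in coelomic-epithelium-like cells at E11.5. Fst, Wnt4, Upk3b and Aldh1a2 are among the genes that named these classes. The part of class in the E11.5 ratios over both classes was not tested. At E12.5 the largest ratios were those of Hsd17b11, a steroid and lipid dehydrogenase, with 117 and 33.4 CPM (3.5, 2.57 to 4.70), and of Sox9, with 50.9 and 15.9 CPM (3.19, 1.99 to 4.98). Traf3ip2, Mid1ip1 and Tpd52l1 followed, at 2.67 to 2.84. Within supporting-lineage-like cells at E12.5, 11 of 2904 genes passed 2-fold upward (0.379%) and 1 downward (0.0344%), and Sox9 (2.63) and Hsd17b11 (2.51) were among them. That class includes the E12.5 cluster with high Pax8 described above, which was high in both Nr0b1 and Sox9. The part of that cluster in these ratios was not tested. In Induced D6, Utf1, a chromatin factor of pluripotent cells, had 52.2 CPM in Nr0b1-positive and 21.0 CPM in negative cells (2.49, 1.85 to 3.30), and at E12.5 Utf1 had 71.6 and 29.0 CPM (2.47). Sprr2d, Mid1ip1 and Hist3h2ba followed Utf1 in Induced D6, at 1.87 to 2.15. Sprr2d was thus among the 5 leading genes in both Induced D6 and E11.5 cells, and Mid1ip1 in both Induced D6 and E12.5 cells. Sprr2d UMIs lay in few cells, which the counting intervals do not cover. Sprr2d was detected in 3.27% of Nr0b1-positive and 2.30% of negative Induced D6 cells, and in 14.1% and 7.19% at E11.5. It was also among the 5 leading genes of the E12.5 split by Nr5a1, at 1.77. Fst was near level in Induced D6, with 35.8 CPM in Nr0b1-positive and 31.7 CPM in negative Induced D6 cells.

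The listed gene groups were counted in the same comparisons of gonadal-epithelium-like cells, where the share of all genes past 2-fold was 0.00% to 1.95% upward and 0.0406% to 3.11% downward. At these shares a count of 0 in a short list is no result about the list. Split by Nr0b1, pregranulosa genes had 0 of 5 past 2-fold in Induced D6, 0 of 9 at E11.5 and 0 of 9 at E12.5, with median log2 ratios of 0.36, 0.57 and 0.47. The median over all genes tested was 0.00 in Induced D6, 0.03 at E11.5 and 0.05 at E12.5. Split by Nr5a1, the pregranulosa medians were 0.72 in Induced D6 and 0.21, 0.22, 0.21 and 0.13 over the 4 later gonad stages. All listed pregranulosa genes but Msx1, Cdkn1b and Esr2 also served to name the supporting-lineage-like class. The part of class in these medians was not tested. Surface epithelium genes past 2-fold were all lower in positive cells. By Nr0b1 they were 0 of 5 in Induced D6, 3 of 5 at E11.5 (Upk3b, Aldh1a2 and Krt7) and 1 of 4 at E12.5 (Upk3b). By Nr5a1 they were 2 of 5 in Induced D6 (Krt19 and Krt7) and none at the gonad stages. Upk3b, Aldh1a2, Krt7 and Krt19 are among the genes that named the coelomic-epithelium-like class. The part of class in these counts was not tested. Among stroma genes none of the 3 to 6 measured passed in either direction in any of the 8 comparisons. Of 10 Sertoli genes at most 1 reached 50 CPM in a comparison, and of 16 steroidogenic genes at most 3. Of 12 pluripotency genes at most 2 did, and Utf1 was the gene that passed 2-fold.

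Cofactors through which SF-1 and DAX1 act were counted too. Of 14 listed coactivators, corepressors and SUMO pathway genes, 8 had at least 50 CPM, and 0 of 8 passed 2-fold between positive and negative gonadal-epithelium-like cells in the 5 comparisons by Nr5a1 and the 3 by Nr0b1, where 0.00% to 3.11% of all genes passed in either direction. Between E14.5 and E11.5, 1 of 8 passed, the deacetylase gene Hdac3, at 66.0 CPM against 138.5 CPM (0.48), and 0 of 8 passed between Induced D6 and E11.5. For all genes the shares were 19.3% lower between E14.5 and E11.5 and 3.61% lower between Induced D6 and E11.5, so these counts are near the background.

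Known SF-1 targets were next compared between stages. Both measured members of the list of gonadotropin, AMH and inhibin targets were at least 2-fold lower at E14.5 than at E11.5, where 19.3% of all genes were and the median log2 ratio was -0.37. Inha had 29.3 CPM at E14.5 against 88.1 CPM at E11.5 (0.33, 0.298 to 0.371), and Amhr2 had 139.5 CPM against 301 CPM (0.46). Of 3 measured steroidogenic genes, 1 was lower. Cyp11a1 had 0.358 CPM at E14.5 against 50.3 CPM at E11.5, while Fdx1 and Fdxr, the electron carriers of steroid synthesis, were at ratios of 1.02 and 1.17. In Induced D6, Inha had 65.5 CPM and Amhr2 398 CPM, ratios of 0.74 and 1.32 to E11.5 cells, and Cyp11a1 had 7.72 CPM (0.15, 0.131 to 0.179). Of the pregranulosa genes, 4 of 11 were at least 2-fold higher at E14.5 than at E11.5, where 5.67% of all genes were, and 1 was lower. Foxl2 had 89.4 CPM against 11.98 CPM, and Lgr5, a Wnt pathway receptor, had 73.0 CPM against 5.24 CPM. The lower one, the homeobox gene Msx1, had 19.7 CPM against 80.1 CPM (0.25). In Induced D6, 0 of 9 were higher than at E11.5 and 5 were lower, where 6.89% and 3.61% of all genes were, with a median log2 ratio of -1.52 over the 9. Fst had 32.3 CPM against 406.5 CPM (0.08). Of 7 primordium regulators in Induced D6, 1 was at least 2-fold higher than at E11.5 and 1 lower. Tcf21 had 172 CPM against 56.4 CPM at E11.5 (3.05, 2.86 to 3.26). Lhx9, which acts upstream of Nr5a1 in the mouse gonad, had 97.9 CPM against 537 CPM at E11.5 (0.18), and Wt1 and Gata4, regulators upstream of it as well, were at 1.73 and 1.32. Tcf21 was also a stroma marker in the naming. Of the stroma genes, Dlk1 (6.49), Maf (3.37), Col3a1 (3.12) and Dcn (2.51) passed 2-fold upward in Induced D6 over E11.5, and Wnt5a (1.48) and Nr2f2 (1.33) did not. Of the surface genes, Krt19 (15.6) and Upk3b (2.43) passed upward, while Aldh1a2 (1.31), Krt18 (1.20), Krt7 (0.99) and Krt8 (0.68) did not. Most listed pregranulosa genes and the surface genes also served to name the epithelium classes. Coelomic-epithelium-like cells were 2275 of the 3507 gonadal-epithelium-like cells in Induced D6 and 619 of 1324 at E11.5. The part of this make-up in the ratios was not tested.

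The closest relatives of both receptors were rare. Nr5a2, which encodes the liver receptor homolog LRH-1, had 0.587 CPM in Induced D6 and 0.862 to 3.41 CPM in gonads. Nr0b2, which encodes the corepressor SHP, had 0.50 CPM in Induced D6 and 0.070 to 3.54 CPM in gonads. In gonadal-epithelium-like cells Nr0b2 had 18 UMIs in Induced D6 and 115 at E12.5, a CPM ratio of 0.133 (0.0762 to 0.220). Nr5a1os had 1.70 CPM in Induced D6 and 0.070 to 0.685 CPM in gonads. No source used here states the strand setting of the counting, so reads from the overlap of Nr5a1 and Nr5a1os may be assigned to either.

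The genes most like Nr5a1 over 36 class sums of at least 50 cells, by Pearson r of log2(CPM + 10) among 6458 genes, were led by Wt1os (0.955), Amhr2 (0.945), Wt1 (0.936), Reep1 (0.935) and Rspo1 (0.926). Lgals7, Kctd14, Kcnd2, Gabra4 and Gata4 completed the 10 genes, with Gata4 at 0.915. Those most like Nr0b1 were Gk5 (0.903), Adm (0.899), Inha (0.887), Zbtb7c (0.887) and Nppc (0.882), followed by Amhr2, Sat2, Mmp23, Tmem35a and Aqp5. Amhr2 was in both lists. Nr0b1 stood at rank 129 for Nr5a1 (r = 0.798) and Nr5a1 at rank 47 for Nr0b1. Classes of the same library share depth and background RNA, so these values describe the data set only.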

How the data were processed

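RNA of dissociated single cells was counted by 10x Genomics chemistry in 6 libraries, 1 for each group. The deposited files hold UMI counts per gene and barcode. The authors used Cell Ranger 3.0.2 and the mm10 genome, per the submitters' processing notes. Gene models are those of GENCODE vM21, and the promoter is from RefSeq. The strand setting is not given in the sources used here.

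Kept barcodes had 500 genes or more, and no more than 10% of their UMIs were mitochondrial. Likely doublets were removed by score, at 0.8% per 1000 barcodes. Each library was clustered on its own with scanpy 1.11.5 (2000 variable genes without Nr5a1 and Nr0b1, 30 components, 15 neighbours, Leiden resolution 1, seed 0, igraph 0.11.9). A cluster was named where at least 3 genes of a marker set, and at least 33.3% of the set, met limits of level and presence. Their level was 1.5-fold above the mean of the other clusters, with 10 CPM added to both. They were present in at least 10% of the cluster's cells. A cluster stayed unnamed where another set had more of the 10 leading genes than its own set. Clusters of low depth with none of their own set among the leading genes stayed unnamed too. The name was also withheld where another set within 0.2 of its fraction had any of the leading genes. Clusters that close between the supporting and coelomic sets were named as both.

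UMI counts were summed by class into CPM with exact Poisson intervals. Ratios have exact conditional binomial intervals, and shares have exact Clopper-Pearson intervals after each cell was thinned to 3000 UMIs (scipy 1.17.1, numpy 2.4.6, pandas 2.3.3, scikit-learn 1.9.0). A count of 0 was taken as a floor of 3 counts in the count of genes past a fold. A gene counted as past 2-fold among genes with at least 50 CPM in either sum. Positive and negative cells were compared across genes where at least 50 cells were positive, by CPM and by share of cells. The programs for ratios and thinning were tested on simulated data.

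The members, the marker sets and the 10 gene lists were chosen with earlier results of these data known. The genes named are both receptors and their paralogs, the list genes with the largest ratios, the 5 genes with the largest ratio in positive cells, and the 10 most like each receptor. Of the genes with the largest ratios, 1 is not reported here. Clusters, and the other genes named for them, were chosen after their values were seen. Alternatives covered cell filters, doublets, clustering, thinning, scaling, the level filter and the measure of likeness. Depth per library is given with the results, and UMIs are counted molecules, so intervals cover counting error.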

Additional observations from a re-analysis of the deposited data

How the results depend on the processing

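Of 289 ratios of Nr5a1 and Nr0b1 recomputed under alternatives, 254 stayed within the counting interval of the value given, 35 moved past it, and 271 kept their side of 1. The 4.78-fold lower Nr0b1 level at E13.5 than at E11.5 moved with 1 alternative. With mitochondrial, ribosomal and haemoglobin genes out of the total that ratio was 0.251.

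Nr5a1 stage ratios depended on the scaling. With median-of-ratios scaling they were 1.08 (E12.5 over E11.5) and 1.15 (E13.5 over E11.5). With mitochondrial, ribosomal and haemoglobin genes out of the total they were 1.21 (E13.5 over E11.5), 1.14 (E13.5 over E12.5) and 1.14 (E14.5 over E11.5). With stricter cell filters, at least 1000 genes and at most 5% mitochondrial UMIs, Nr5a1 was at 0.737 for E14.5 over E11.5 and at 0.698 for E14.5 over E13.5. Its epithelium to stroma ratio at E14.5 was then 2.83.

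For Induced D6 over E11.5, Nr5a1 was at 1.36 with resolution 0.5 and at 1.33 with unnamed clusters nearest the supporting lineage added. Nr0b1 was at 1.33 and 1.44 with these, and at 1.34 with the stricter filters. For Induced D6 over E12.5, Nr5a1 was at 1.07 with median-of-ratios scaling, 1.09 with the 3 gene classes out of the total, 1.38 at resolution 0.5, 1.14 at resolution 2 and 1.34 with unnamed clusters added. Nr0b1 was at 1.32 with median-of-ratios scaling, 1.35 with the gene classes out, 1.76 with the stricter filters and 1.92 with unnamed clusters added.

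The Induced D6 epithelium to stroma ratio of Nr5a1 was 3.27 with both genes in the clustering, 3.44 at resolution 0.5 and 3.62 at resolution 2. That of Nr0b1 was 3.84, 4.0 and 3.59, and 2.79 with unnamed clusters added. The E11.5 ratio of Nr0b1 was 3.5 at resolution 2 and 3.47 with the stricter filters. The share of Nr0b1 in Nr5a1-positive over negative cells was 0.311 (E11.5) and 2.34 (E13.5) with thinning to 2000 UMIs, and 3.21 (E14.5) with the stricter filters. The cause was not tested for any of these.

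A filter at 10 CPM in place of 50 CPM raised every count of genes past 2-fold, for example to 942 upward and 329 downward for Induced D6 over E12.5 (345 and 109), and to 687 and 1221 for E14.5 over E11.5 (176 and 598). Between E14.5 and E13.5 the counts were 34 and 14 at resolution 0.5 and 60 and 23 with the stricter filters, against 20 and 3. Of the 10 genes most like each receptor, Spearman rho kept 2 for Nr5a1 and 3 for Nr0b1, and a pseudocount of 1 kept 5 and 3.

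The 2 alternatives on shared barcodes and on unnamed clusters were chosen after seeing the data. No paired analysis was possible because each group has 1 library, and so no replicate was left out. Nr0b1 in E10.5 epithelium rests on 8 UMIs, and shares at 3000 UMIs miss cells with little of either RNA. Class names rest on markers and not on the authors' annotation.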
